A study of Mus musculus with 8 samples.

Results

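The genes described here are 10 members of the Wnt pathway in mouse skin: the ligands Wnt3, Wnt4, Wnt5a, Wnt10a, Wnt10b and Wnt11, the secreted inhibitors Dkk3, Sfrp1 and Wif1, and the target Axin2. They were taken by name as Wnt genes of the hair follicle's epithelium and papilla with their inhibitors and target, and found through the RefSeq accession of each array probe. All 10 were found, on 11 of the 55603 probes in use, among 20128 genes with a probe. RNA of 8 skin samples was hybridised to 1-colour Agilent mouse expression arrays, 1 array per sample, all C57BL/6N. Mice edited with CRISPR/Cas9, labelled Cchcr1 mutant, gave 2 samples of skin with hair loss and 4 samples of skin labelled normal. Wild type mice gave 2 samples of normal skin, the only group without the mutation. Each sample title holds a number, Mutant097, Mutant113 or Wild001. Both mutant numbers gave 1 hair loss and 2 normal skin samples, and both wild type samples carry Wild001. What a number stands for, an animal or a line, is not explained in the labels, and age is not given in the sources used here. The p-values therefore measure the spread between these samples, which may be technical. Since wild type has a number of its own, genotype and number cannot be told apart.

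Wnt proteins are secreted signals that bind Frizzled receptors. In the canonical branch, binding of Frizzled with an Lrp co-receptor stops the Axin-containing destruction complex from degrading beta-catenin, which then acts with Tcf and Lef factors on target genes. In skin, canonical Wnt signalling is needed to form hair follicles and to start their growth phase (anagen), and secreted inhibitors from the dermis and epithelium limit it. Among the 10 genes, Wnt3, Wnt10a and Wnt10b encode ligands of the canonical branch, and Wnt5a and Wnt11 encode ligands known mainly for beta-catenin independent signalling. Wnt4 encodes a ligand made in the epidermis. Sfrp1 and Wif1 proteins bind Wnt ligands outside the cell, Dkk3 is a divergent member of the Dickkopf family, and Axin2 is a scaffold of the destruction complex whose gene is itself a target of the pathway.

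The sequences just before the gene starts are shown for 4 genes, Wnt10b, Wnt11, Wif1 and Axin2. They are the genes with a promoter entry whose 95% interval of mutant normal skin against wild type, before adjustment, lay to 1 side of 0: above it for Wnt10b, Wnt11 and Wif1 and below it for Axin2. RefSeq promoter sequences (build GRCm38.p6) were matched for 6 of the 10 genes, Wnt3, Wnt4, Wnt10b, Wnt11, Axin2 and Wif1, with 7 promoters among them, 2 of these for Wnt11, of which the one holding a match is shown. The 250 bases before each start were searched on both strands for the Tcf/Lef core motif, spelled CTTTG followed by a pair of bases that are each A or T. The windows below run 5′ to 3′ along the gene, with the Wnt10b window at chr15:98778151-98778400 on the minus strand, that of Wnt11 at chr7:98834862-98835111 on the plus strand, that of Wif1 at chr10:121033754-121034003 on the plus strand and that of Axin2 at chr11:108920099-108920348 on the plus strand. Capitals mark a match.
Wnt10b: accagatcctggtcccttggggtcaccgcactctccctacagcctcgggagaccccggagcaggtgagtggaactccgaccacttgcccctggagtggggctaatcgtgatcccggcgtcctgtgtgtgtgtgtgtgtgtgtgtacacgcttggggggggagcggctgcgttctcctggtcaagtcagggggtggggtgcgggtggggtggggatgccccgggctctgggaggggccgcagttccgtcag
Wnt11: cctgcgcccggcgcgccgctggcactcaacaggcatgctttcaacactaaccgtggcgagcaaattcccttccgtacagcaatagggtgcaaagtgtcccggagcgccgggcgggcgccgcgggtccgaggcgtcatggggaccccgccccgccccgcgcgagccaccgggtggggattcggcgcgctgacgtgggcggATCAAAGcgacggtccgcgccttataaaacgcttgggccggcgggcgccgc
Wif1: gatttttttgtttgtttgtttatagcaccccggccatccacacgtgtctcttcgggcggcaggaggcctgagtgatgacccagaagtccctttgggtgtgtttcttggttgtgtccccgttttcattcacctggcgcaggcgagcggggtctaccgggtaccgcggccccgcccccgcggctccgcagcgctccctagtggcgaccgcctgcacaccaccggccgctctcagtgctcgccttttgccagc
Axin2: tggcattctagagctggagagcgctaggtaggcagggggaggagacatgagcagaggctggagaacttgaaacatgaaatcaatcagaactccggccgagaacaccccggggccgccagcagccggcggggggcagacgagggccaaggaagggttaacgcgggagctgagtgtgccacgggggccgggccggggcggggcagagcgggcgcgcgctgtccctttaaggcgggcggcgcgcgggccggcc
The Wnt11 window held 1 match, ATCAAAG, the motif read on the opposite strand, starting 51 bases before the gene start. It was the only match in the 7 windows, and 14.8% of all 32851 promoters hold one. The other 6 windows do not hold these letters. G and C made up 66.8% of the Wnt10b window, 70.8% of the Wnt11 window, 62.8% of the Wif1 window and 69.2% of the Axin2 window, against a median of 52.4% over all promoters.

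A level below is the log2 of the processed spot intensity minus the 75th percentile of its own array, so 0 lies at that percentile and levels of different genes, read by different probes, were not set against each other. All 11 probes were tested, because each was well above background on at least 2 arrays. Of the 10 genes, 9 were well above background on all 8 arrays, and Wnt10b was so in all 6 mutant samples and on neither wild type array. A gene counts as passing where limma's p, adjusted over all 30417 probes tested, was under 0.05. None of the 10 genes passed in any comparison between the 3 groups. In 6 of them the 95% interval of mutant normal skin against wild type, before adjustment, lay to 1 side of 0. The array number limits the precision of every value.

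**Figure D1:**
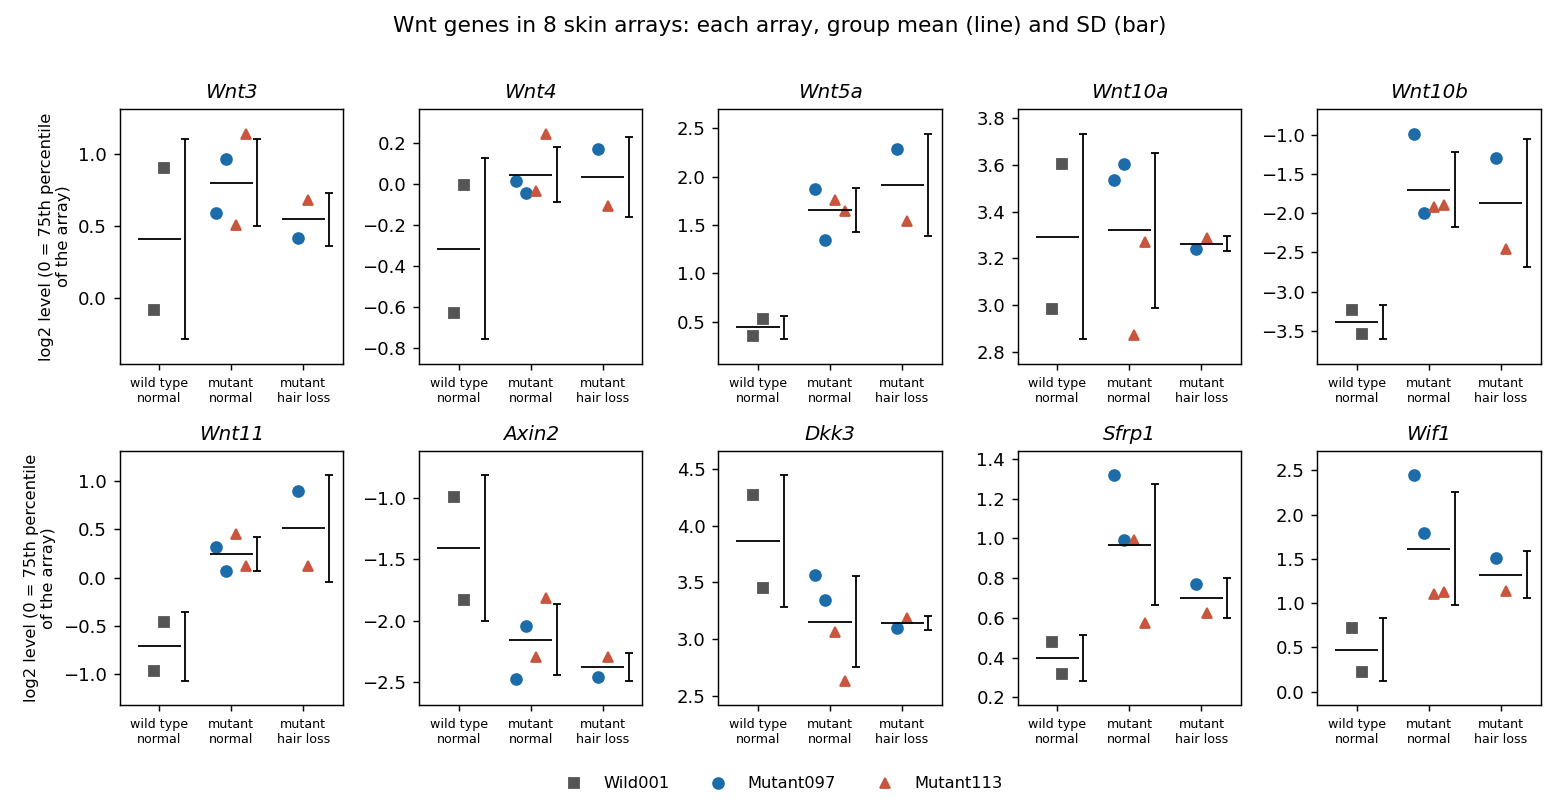
Levels of the 10 Wnt genes (log2 intensity minus the array's 75th percentile, vertical axis) on each of the 8 arrays, by group, with the horizontal line at the group mean, the bar beside it at the SD and the symbol giving the title number. Wnt5a and Wnt11 were lower on both wild type arrays than on any of the 6 mutant arrays, while Wnt3, Wnt4 and Wnt10a overlapped between all groups.

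All 8 arrays were on 1 slide, with both hair loss arrays and the Mutant097 normal skin in row 1, and the Mutant113 normal skin and both wild type arrays in row 2. Hair loss and wild type therefore share no row. Only mutant normal skin was on both rows, with Mutant097 in row 1 and Mutant113 in row 2. A slide row block therefore takes its row effect from the difference between these numbers. The 75th percentile of intensity ranged from 83.1 to 211 and the probes well above background from 25424 to 30205 per array, and no spot was saturated. All 6 keratinocyte markers (such as Krt5 and Krt14) were well above background on all 8 arrays. Xist was above background only in the 3 Mutant113 samples, and the Y-linked Ddx3y and Eif2s3y only in the Mutant097 and wild type samples. The 2 mutant numbers therefore differ in sex markers. Hair shaft keratins were lowest in wild type, and the mutant groups overlapped: the log2 of their summed level was 9.32 to 10.87 in hair loss, 7.34 to 10.01 in mutant normal skin and 0.56 to 1.21 in wild type. In bulk skin, fewer cells of a type and less RNA per cell cannot be told apart.

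Among the ligands, Wnt5a was higher in the mutants by more than its spread within either group, though it did not pass after adjustment over all probes. Wnt5a, a ligand made in the dermal papilla and dermis, was at 0.35 and 0.53 in wild type, at 1.88, 1.35, 1.76 and 1.64 in mutant normal skin, and at 2.29 and 1.54 in hair loss. Both wild type samples were below all 6 mutant samples. Mutant normal skin was above wild type by 1.21 (SE 0.25, 95% interval 0.63 to 1.80, limma adjusted p = 0.0956). Hair loss skin was above wild type by 1.47 (SE 0.29, interval 0.80 to 2.15, limma adjusted p = 0.0580). These comparisons share the wild type samples. The second was the 1 member value that crossed the threshold under other settings. Without the Mutant113 hair loss sample, the lower of the pair, the difference was 1.85 with a limma adjusted p of 0.0387, and without the Mutant097 sample it was 1.1001 with a limma adjusted p of 0.216.

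Wnt10b, a canonical ligand linked to the start of follicle growth, was at -3.24 and -3.55 in wild type, both not well above background, at -0.98, -2.00, -1.91 and -1.89 in mutant normal skin, and at -1.29 and -2.45 in hair loss. All 6 mutant samples lay above both wild type samples, and the highest mutant level was in a Mutant097 normal skin sample. Against the array floor, the mean of the lowest signals well above background, the level of Wnt10b in mutant normal skin was at least 2.99-fold higher than in wild type, and in hair loss at least 2.65-fold higher. The measured means were -1.70 ± 0.48 (SD, n = 4), -1.87 ± 0.82 (n = 2) and -3.39 ± 0.22 (n = 2). The limma adjusted p was 0.121 for mutant normal skin and 0.109 for hair loss. Wnt10b entered the test through its mutant samples alone. The fold bounds hold for the processed signals only. With another background correction (normexp, with an offset of 50) the difference of mutant normal skin from wild type was 0.46 in place of 1.70. Under the alternatives run, that of hair loss went down to 0.37 in place of 1.52. The part of the offset in these values was not tested.

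Wnt11, a ligand of the beta-catenin independent branch, was at -0.97 and -0.46 in wild type, at 0.32, 0.07, 0.45 and 0.12 in mutant normal skin, and at 0.90 and 0.12 in hair loss. The mutant samples again lay above both wild type samples. The difference was 0.95 (SE 0.27, interval 0.34 to 1.57, limma adjusted p = 0.162) for mutant normal skin and 1.22 (SE 0.31, limma adjusted p = 0.0832) for hair loss.

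The other 3 ligands were close between groups. Wnt3, made by the precursors of the hair shaft, was at -0.08 and 0.90 in wild type, which spanned the range of most mutant samples, at 0.59, 0.97, 0.51 and 1.14 in mutant normal skin and at 0.42 and 0.68 in hair loss. Its difference of mutant normal skin from wild type was 0.39 (SE 0.31, limma adjusted p = 0.549). Wnt4 had group means of 0.03 ± 0.20 (SD, n = 2) in hair loss, 0.05 ± 0.14 (n = 4) in mutant normal skin and -0.32 ± 0.44 (n = 2) in wild type, and the wild type spread came from 1 sample at -0.63 and another at -0.0033. Its difference of mutant normal skin from wild type was 0.36 (SE 0.22, limma adjusted p = 0.437). Wnt10a, a ligand of the follicle epithelium whose human gene is mutated in some ectodermal dysplasias, was at 2.98 and 3.60 in wild type and between 2.87 and 3.60 in the 6 mutant samples. The 95% interval of its difference between mutant normal skin and wild type ran from -0.59 to 0.65, around a value of 0.03. With the slide row as a block, that value was on the other side of 0, at -0.22. The interval measures the spread between these samples, so it does not bound a change by genotype.

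The 3 secreted inhibitors did not share a direction. Wif1, which binds Wnt ligands in the extracellular space, was at 0.72 and 0.22 in wild type, at 2.45, 1.80, 1.103 and 1.12 in mutant normal skin and at 1.51 and 1.13 in hair loss. All mutant samples were above both wild type samples, by 1.14 on average in mutant normal skin (SE 0.40, interval 0.22 to 2.07, limma adjusted p = 0.221) and by 0.85 in hair loss (SE 0.46, limma adjusted p = 0.291). Sfrp1, a Frizzled-related protein that also binds Wnt ligands, was at 0.48 and 0.32 in wild type, at 1.32, 0.99, 0.99 and 0.57 in mutant normal skin and at 0.77 and 0.63 in hair loss. Both mutant groups lay above wild type without overlap, with a smaller difference of 0.57 for mutant normal skin (SE 0.22, limma adjusted p = 0.254) and 0.30 for hair loss (SE 0.26, limma adjusted p = 0.490). With the slide row as a block, the differences of hair loss from wild type were on the other side of 0, at -0.16 for Wif1 and -0.072 for Sfrp1, and that of mutant normal skin was 0.64 for Wif1. That row effect came from the mutant numbers in normal skin, so it cannot be told apart from the number. Dkk3 was placed the other way. It was at 4.27 and 3.45 in wild type, at 3.56, 3.35, 3.07 and 2.63 in mutant normal skin and at 3.10 and 3.19 in hair loss. Hair loss lay below wild type without overlap, and mutant normal skin overlapped it through 1 sample at 3.56. The difference of mutant normal skin was -0.71 (SE 0.32, interval -1.44 to 0.03, limma adjusted p = 0.304), and that of hair loss was -0.72 (SE 0.37, limma adjusted p = 0.267), or -1.32 with the slide row as a block. Under the alternatives run, that of mutant normal skin ranged from -1.12 to -0.30.

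Axin2, the target among the 10 genes, had lower means in the mutants on its brighter probe. It was at -0.99 and -1.83 in wild type, at -2.48, -2.04, -2.30 and -1.81 in mutant normal skin and at -2.46 and -2.30 in hair loss. The wild type value of -0.99 came from the array with the lowest 75th percentile of intensity, 83.1. Mutant normal skin overlapped wild type by 1 sample at -1.81, and hair loss lay below both wild type samples. The difference was -0.75 for mutant normal skin (SE 0.28, interval -1.41 to -0.09, limma adjusted p = 0.246) and -0.97 for hair loss (SE 0.33, limma adjusted p = 0.132). Under the alternatives run, that of mutant normal skin ranged from -1.17 to -0.32. The second Axin2 probe gave differences of the same sign and smaller size, -0.35 (limma adjusted p = 0.510) and -0.66 (limma adjusted p = 0.211). That probe was well above background on 7 of the 8 arrays.

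**Figure D2:**
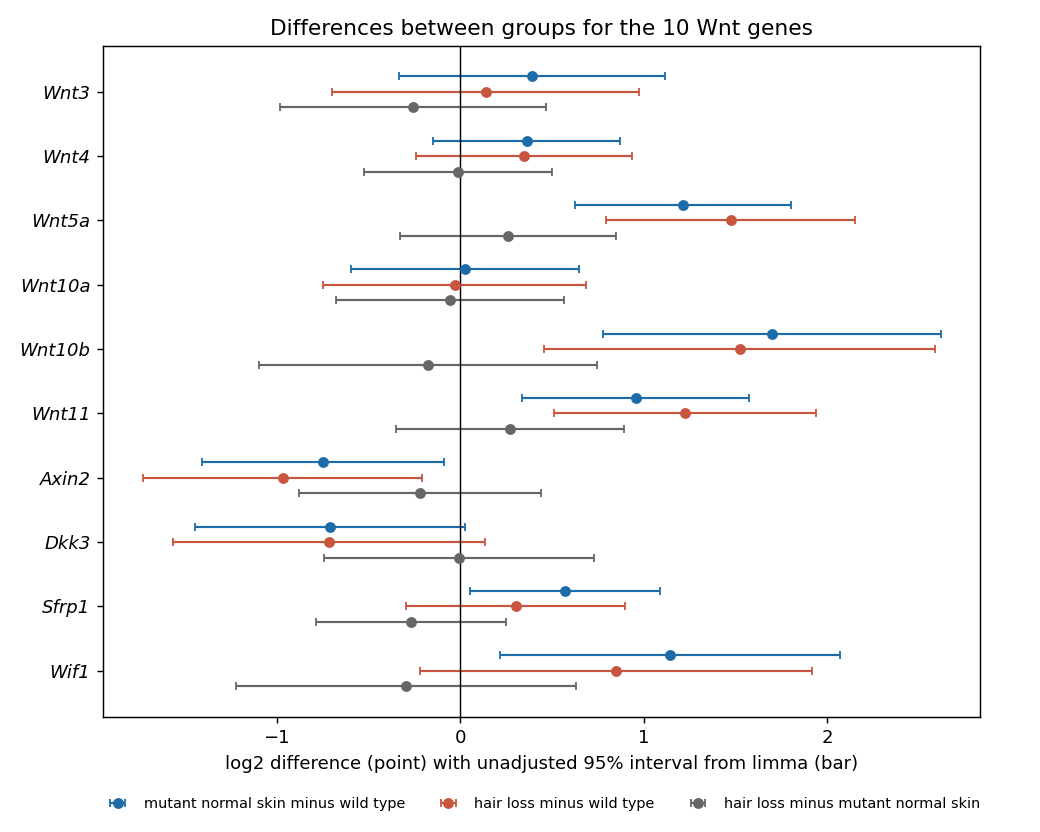
Differences in level between groups for each Wnt gene (log2, horizontal axis), as points with unadjusted 95% intervals from limma. The intervals of mutant normal skin against wild type lie to 1 side of 0 for Wnt5a, Wnt10b, Wnt11, Axin2, Sfrp1 and Wif1, and those of hair loss against mutant normal skin include 0 for all 10 genes.

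As a group, the 10 genes had a median difference of 0.48 between mutant normal skin and wild type, with 8 of 10 above 0, beside a median of -0.04 over all probes tested. None passed, where 0.694% of all probes did (211 of 30417). In 5 of the 10, Wnt5a, Wnt10b, Wnt11, Sfrp1 and Wif1, every mutant normal skin sample was above both wild type samples, as in 13.6% of all probes, and none lay wholly below, as in 14.8%. An unadjusted p under 0.05 was found for 6 of 10 members and 17.2% of all probes. These counts, and those for hair loss below, describe the arrays and support nothing further. The 10 genes were chosen with earlier results of these data known, and Wnt10b entered the test through its mutant samples alone. For hair loss against wild type the median was 0.32 over the 10 genes and -0.06 over all probes, and 1.42% of all probes passed. There, 5 members lay wholly above wild type, beside 24.8% of probes, and 2 (Axin2 and Dkk3) wholly below, beside 28.5%. An unadjusted p under 0.05 was found for 4 members, Wnt5a, Wnt10b, Wnt11 and Axin2, and also for 24.8% of all probes. The counts of passing probes rested on the wild type pair: without wild type replicate 1 they were 10 and 10, and without replicate 2 they were 0 and 0, in place of 211 and 432. For hair loss against wild type, 2 probes passed without hair loss replicate 1.

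Markers of several cell types moved with the same groups, in both directions. Of 12 hair shaft keratins listed, 10 had a named probe, and 8 of these rose in mutant normal skin and 9 in hair loss against wild type (limma adjusted p under 0.05), beside 0.694% and 1.42% of all probes. In wild type, 6 of the 10 (Krt32, Krt33a, Krt33b, Krt34, Krt36 and Krt82) were not well above background and entered the test through the mutant samples alone, so the count describes these arrays and supports nothing further. Inner root sheath markers had log2 summed levels of 10.17 to 11.22 in hair loss, 8.75 to 10.78 in mutant normal skin and 2.60 to 3.15 in wild type. Of these 8, 7 passed in each mutant group against wild type, and Krt26 entered the test through the mutant samples alone. Follicle matrix markers summed to 5.35 to 6.00, 5.25 to 5.69 and 4.84 to 5.03 in the same order. That sum is weighted to the brightest of them, Gata3 and Dlx3. Of 6 matrix markers tested, 1 passed in mutant normal skin and 2 in hair loss, with median differences of 1.51 and 1.84. The shares of all probes are those given above. The 5 markers of cycling cells were all above their wild type means, with summed levels of 4.59 to 5.20, 3.83 to 5.48 and 2.34 to 2.93, and none passed. The 8 dermal papilla markers summed to 3.62 to 3.65 in hair loss, 3.66 to 4.14 in mutant normal skin and 3.76 to 4.13 in wild type, with none passing and Corin not well above background in wild type. Other lists were lower in the mutants. All 5 fibroblast markers were below their wild type means, with medians of -0.96 in mutant normal skin and -0.97 in hair loss and none passing, and so were all 3 macrophage markers, at -0.72 and -0.65. Of 8 skeletal muscle markers, 7 were lower in mutant normal skin with none passing, and all 8 in hair loss, where 2 fell past the threshold (median -2.21). The part of these markers in the Wnt values was not tested.

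Hair loss skin was next set against normal skin of the same genotype, the comparison that asks what differs in the bald patch. None of the 10 genes passed, none had an unadjusted p under 0.05 and in none did the groups separate. No probe of the 30417 passed either (0%), 5.20% had an unadjusted p under 0.05, and 12.4% had groups that did not overlap. The limma adjusted p was 0.999 for every member. The median difference was -0.12 over the 10 genes and -0.01 over all probes, and only Wnt5a and Wnt11 were above 0. Wnt5a was at a difference of 0.26 (SE 0.25, interval -0.33 to 0.85) and Wnt11 at 0.27 (SE 0.27). Among the inhibitors, Wif1 was at -0.30 (SE 0.40, interval -1.22 to 0.63), Sfrp1 at -0.27 (SE 0.22) and Dkk3 at -0.0064. Wnt10b was at -0.17 (SE 0.40), with an interval that reached 0.75 above 0 and further below it. Marker lists moved with this contrast in both directions, none of the markers passing. All 8 skeletal muscle markers were lower in hair loss, with log2 summed levels of 7.82 to 9.21 against 9.07 to 10.43. Of 5 bulge markers, 1 was above 0 (median -0.63), with summed levels of 7.36 to 7.67 against 7.81 to 8.49. All 10 hair shaft markers (median 1.62) and all 8 inner root sheath markers (median 0.86) were above 0. So were all 5 melanocyte markers (median 0.70) and all 5 cycling cell markers (median 0.29). Their part in the Wnt values was not tested.

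The small differences between hair loss and mutant normal skin were averages over 2 title numbers, in which several genes lay on opposite sides of 0. Wnt5a was 0.68 higher in hair loss within Mutant097 and was at -0.16 within Mutant113. Wnt11 was at 0.71 and -0.17 and Wnt10b at 0.20 and -0.55. Of the inhibitors, 2 lay the other way, with Wif1 at -0.61 in Mutant097 and 0.02 in Mutant113, and Dkk3 at -0.35 and 0.34. Wnt10a was at -0.33 and 0.21 and Wnt4 at 0.19 and -0.21, while Wnt3, Sfrp1 and Axin2 were below 0 within both numbers. Each number has 1 hair loss sample, so each within-number value rests on 1 array against 2. Marker lists also differed between the numbers, in both directions. Taking the value in Mutant113 minus that in Mutant097, all 10 hair shaft markers (median -3.94) and all 8 inner root sheath markers (median -2.50) were below 0. So were all but 1 of 8 skeletal muscle markers (median -2.07). All 5 fibroblast and all 5 cycling cell markers were above 0 (medians 0.81 and 0.59). Their part in the Wnt values was not tested. The difference between numbers passed for no member: it was -0.84 for Wnt5a (SE 0.40, limma adjusted p = 0.595), -0.87 for Wnt11 (SE 0.43, limma adjusted p = 0.611) and 0.63 for Wif1 (limma adjusted p = 0.759). It passed for 0% of all probes as well, while 9.50% had an unadjusted p under 0.05 and no member did. Within a number, 0.628% of probes passed in Mutant097 and 0.00329% in Mutant113, no member among them.

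**Figure D3:**
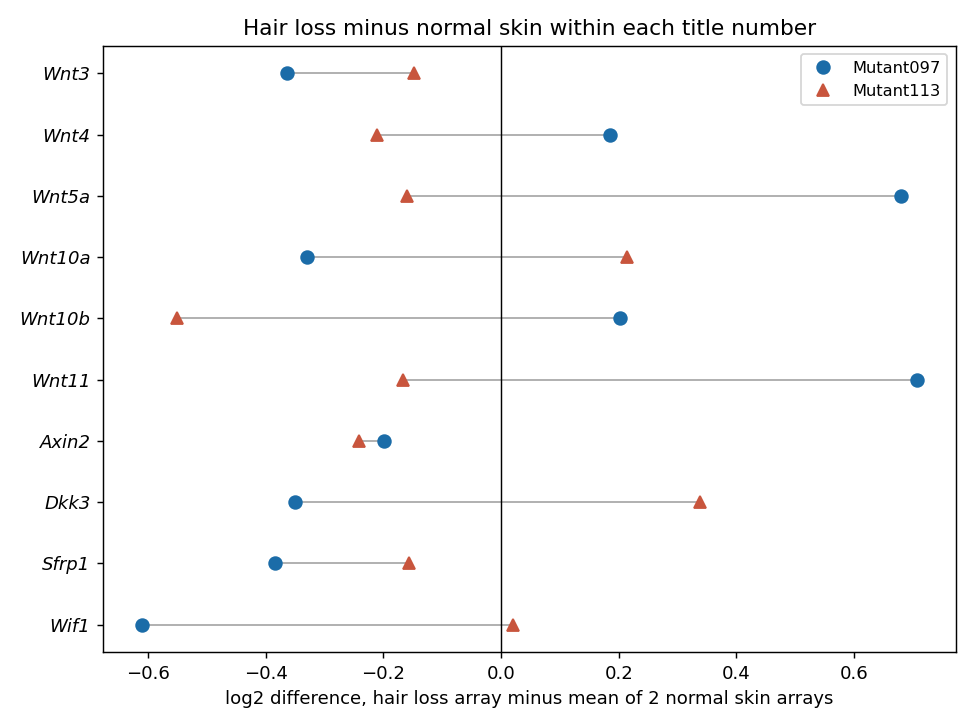
Difference of the hair loss array from the mean of the 2 normal skin arrays (log2, horizontal axis) for each Wnt gene, with Mutant097 as circles and Mutant113 as triangles, joined by a line. For Wnt5a and Wnt11 the circle lies at 0.68 and 0.71 and the triangle just below 0, and the symbols of Wnt3, Sfrp1 and Axin2 both lie below 0.

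Normal skin also differed between the mutant numbers, most for Wif1. Its mean was 2.12 in Mutant097 and 1.11 in Mutant113, a difference of -1.01 (SE 0.29, limma adjusted p = 0.226), and both Mutant113 samples were below both Mutant097 samples. It was the 1 member with an unadjusted p under 0.05, beside 15.8% of all probes, and no member passed where 0.266% of probes did. Dkk3 was at -0.60, Wnt10a at -0.50, Wnt10b at -0.41 and Sfrp1 at -0.37 in the same direction. Sex markers and, in normal skin of the mutants, the slide row follow the number, so they cannot be told apart from it.

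Set against wild type within each number, Wnt5a, Wnt10b and Wnt11 were higher in both. Their sign, and that of Wif1 and Sfrp1, was fixed in advance, since every mutant normal skin sample lay above both wild type samples. Wnt5a was above wild type by 1.17 in Mutant097 (limma adjusted p = 0.0903) and 1.26 in Mutant113 (limma adjusted p = 0.0570). On the processed signals, Wnt10b was at least 3.44-fold higher in Mutant097 (limma adjusted p = 0.0854) and at least 2.59-fold higher in Mutant113 (limma adjusted p = 0.103). These bounds depend on the background correction. Wnt11 was above wild type by 0.91 in Mutant097 and by slightly more in Mutant113 (limma adjusted p = 0.148 and 0.112). Wif1 differed from wild type by 1.65 in Mutant097 (limma adjusted p = 0.0787) and by 0.64 in Mutant113 (limma adjusted p = 0.308), and Sfrp1 by 0.76 and 0.39. Dkk3 had its larger difference in Mutant113, at -1.01 against -0.41 in Mutant097, and Axin2 was at -0.85 in Mutant097 and -0.65 in Mutant113. No member passed, where 0.999% of probes did in Mutant097 and 3.26% in Mutant113. These comparisons share the 2 wild type samples.

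Wif1 was the 1 gene of the 10 that was above background on all 8 arrays and spanned at least 2 log2 units between arrays, at 2.22. Over the 8 arrays, 2 of the genes with the closest pattern after each gene's mean was removed were Cnih2 and Hapln3, with root mean square differences of 0.20 and 0.20 from Wif1, beside a median of 0.67 over 12212 genes compared.

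Of 80 other genes of the pathway listed, 65 could be tested, and none passed in any of the 3 group comparisons. The 15 that were not well above background on enough arrays include the ligands Wnt3a and Wnt7a, the inhibitors Dkk1, Dkk4 and Sost, and the placode receptor gene Edar. Between mutant normal skin and wild type, 37 of 65 were above 0 with a median of 0.04, 8 were higher and 2 lower at an unadjusted p under 0.05, beside 17.2% of all probes in either direction. Between hair loss and wild type, 34 were above 0 with a median of 0.09, 13 higher and 6 lower at that level, beside 24.8% of all probes. Between hair loss and mutant normal skin, 33 were above 0 with a median of 0.02, 3 higher and 2 lower, beside 5.20% of all probes.

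The pathway gene with the smallest p in each class shows how its values lay beside those of the 10 genes. Among targets and effectors, Lef1, the factor that carries beta-catenin to its targets in hair matrix cells, was at -0.73 and -2.29 in wild type, at 1.56, 0.29, 0.74 and 0.44 in mutant normal skin and at 1.99 and 0.48 in hair loss. Both wild type samples were below all mutant samples, with a difference of 2.26 for mutant normal skin (SE 0.59, limma adjusted p = 0.144). Lef1 was thus placed opposite to Axin2, though both are listed as targets. Of 10 other target and feedback genes tested, Lef1 among them, 8 were above 0 in this comparison, with a median of 0.32. At an unadjusted p under 0.05, 3 were higher and 0 lower, beside 17.2% of all probes in either direction. Wnt5b, the ligand closest in sequence to Wnt5a, was above wild type by 0.86 in mutant normal skin (SE 0.25, limma adjusted p = 0.172) and by 0.83 in hair loss (limma adjusted p = 0.141). The receptor Fzd10 was above wild type by 1.06 in mutant normal skin (SE 0.26, limma adjusted p = 0.132), and Notum, an enzyme that inactivates Wnt proteins by removing their lipid, was at -0.63 (limma adjusted p = 0.244). Bcl9l, a co-activator that binds beta-catenin, was also at -0.63 (limma adjusted p = 0.155).

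For hair loss against wild type, Wnt5b was again the ligand with the smallest p, and in the other classes it lay with other genes. Against wild type, Porcn, the enzyme that adds the lipid Wnt proteins need for secretion, was at a difference of 1.04 (limma adjusted p = 0.0804). Ctnnbip1, an inhibitor of the binding of beta-catenin to Tcf factors, was at 1.12 (limma adjusted p = 0.0696), and Cd44, a target gene, at 1.11 (limma adjusted p = 0.0708). The receptor Fzd9 was lower in both hair loss samples, at -1.76 and -3.03, than in any of the 6 other samples, of which the lowest was at -0.77. Its difference was -2.79 from wild type (limma adjusted p = 0.0743) and -2.23 from mutant normal skin (SE 0.56, limma adjusted p = 0.723). The skeletal muscle markers also had lower means in hair loss, and their part in the Fzd9 value was not tested. The inhibitor Sfrp5 was at -1.01 in hair loss against mutant normal skin (SE 0.27, limma adjusted p = 0.742). Other genes lay the other way in this comparison. At an unadjusted p under 0.05, 3 of the 65 were higher, 2 of them secreted modulators and 1 intracellular, and 2 were lower, beside 5.20% of all probes.

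**Figure D4:**
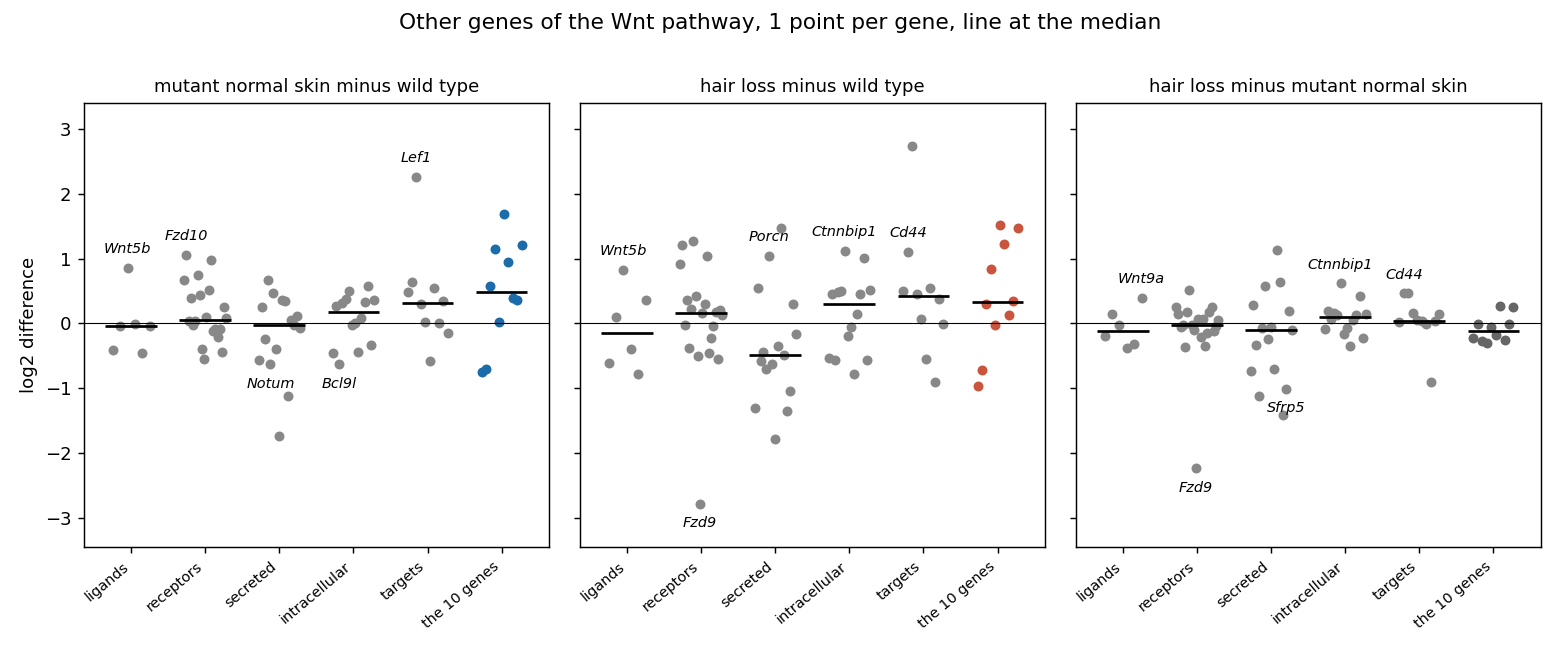
Differences between groups (log2, vertical axis) for the 65 other pathway genes by class and for the 10 Wnt genes, 1 point per gene, with a line at each median; the gene with the smallest p in a class is named. The medians of the 10 genes were 0.48 for mutant normal skin against wild type, 0.32 for hair loss against wild type and -0.12 for hair loss against mutant normal skin.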

How the data were processed

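Skin RNA was labelled and hybridised to 8 Agilent 1-colour arrays on 1 slide. The deposited scanner files, made with Agilent Feature Extraction 11.5.1.1 per the submitters' processing notes, hold spot intensity, and the authors' deposited matrix holds log2 values that matched the same signals within 0.01 for all 55603 probes apart from a shift near 0. Levels are log2 processed intensity, averaged over spots of a probe after control spots and outlier-flagged spots were removed, minus the array's 75th percentile. Of 55681 probes, 78 were dropped. Symbols came from RefSeq accessions (GRCm38.p6), and 19195 of the 30417 probes tested had one. A gene with 2 probes was read from the brighter. Probes well above background on at least 2 arrays were fitted with limma 3.58.1 (R 4.3.3), with 3 groups in 1 model (5 residual degrees of freedom) and Benjamini-Hochberg adjustment over all probes. A second model with group and title number combined gave the values within a number. The fit was tested on simulated data. Where a group was not well above background on any array, the fold was taken against the higher of its own signal and the lowest signal well above background on each array. It is a lower bound for these processed signals only. Alternatives were quantile normalization, normexp correction (offset of 50, then quantile normalization), other filters, probe averaging, blocks and leaving out each array. The 10 genes, the pathway list and the marker lists were chosen with earlier results of these data known. All 10 genes were named. Other pathway genes were named where they had the smallest p in their class for a comparison, and pattern matches were the 3 nearest genes, of which 1 is not reported here.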

Additional observations from a re-analysis of the deposited data

Results flagged for a closer look

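Wnt10b in mutant normal skin had 1 sample apart from the other 3. The Mutant097 sample of replicate 1 was at -0.98, and the others were at -2.00, -1.91 and -1.89, so its gap to the nearest took 0.891 of the range of the group. Chance alone puts about 1 in 20 groups past the level used to pick such gaps, and each of the 10 genes was examined in this group. Without that sample the difference of mutant normal skin from wild type was 1.46 (limma adjusted p = 0.160) in place of 1.70.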

How the results depend on the processing

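No member passed between hair loss and mutant normal skin, or between mutant normal skin and wild type, under any alternative run. For hair loss against wild type the count went from 0 to 1, Wnt5a each time, with normexp (limma adjusted p = 0.0449), with probes well above background on all 8 arrays (0.0437) and with the mean of a gene's probes (0.0459), and it ranged from 0 to 1 when each array was left out. The adjusted p of that Wnt5a difference ranged up to 0.270 under the others. Over all probes the counts moved more: 211 passed between mutant normal skin and wild type, against 60 with normexp, 128 with no filter, 64 with the filter on all 8 arrays, 124 genes with probes averaged, 0 with 1 mean per title number and 856 with the slide row as a block. Between hair loss and wild type they were 432, 183 with no filter, 0 with 1 mean per number and 1332 with the row. The row effect in these counts came from the mutant numbers in normal skin. The row counts are therefore no independent correction for slide position. With normexp, 51.7% of the 60 calls were higher, against 82.9% of the 211, and 53.6% against 69.9% for hair loss. For the difference between title numbers, 264 passed with normexp against 0.

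Among 486 values for single genes, 24 changed sign. Many of the 486 had no room to move. The filters, and probe averaging for genes with 1 probe, leave a difference as it is. The deposited values, also run, leave it nearly so. The count of 24 therefore does not measure how stable the signs are. Wnt10a in mutant normal skin against wild type was at -0.018 with normexp, -0.035 with quantile normalization and -0.22 with the slide row as a block. With that row, Wnt4 in hair loss against mutant normal skin was at 0.047, and hair loss against wild type was at -0.072 for Sfrp1 and -0.16 for Wif1. Axin2 between title numbers was at 0.0092 with quantile normalization. When each array was left out, the difference of hair loss from mutant normal skin ran from -0.11 to 0.63 for Wnt5a, -0.12 to 0.66 for Wnt11, -0.76 to 0.41 for Wnt10b, -0.21 to 0.037 for Wnt10a, -0.15 to 0.13 for Wnt4 and -0.18 to 0.13 for Dkk3. Against wild type, mutant normal skin ran from -0.28 to 0.34 for Wnt10a and -0.10 to 0.89 for Wnt3, and hair loss from -0.34 to 0.28 for Wnt10a and -0.36 to 0.63 for Wnt3. The cause was not tested. The title number as a replicate block left 0 members and 0 probes passing between hair loss and mutant normal skin, with Wnt5a at 0.26 (limma adjusted p = 0.903). With 2 pairs, whose deviations correlated at 0.13, the labels do not settle that the numbers pair samples. Normexp used median signals, an alternative chosen after the data were seen. The planned version on mean signals was not run. Where leaving out an array left 1 sample in a group, that sample was assumed to vary like the rest. Wnt10b, below background in wild type, is limited by signal.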

Other observations

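Among the other pathway genes, targets and feedback regulators were placed lower in normal skin of Mutant113 than in that of Mutant097. Of 10 tested, 2 were above 0, the median difference was -0.34, and 4 (Sp5, Ccnd1, Nkd2 and Rnf43) were lower at an unadjusted p under 0.05. Over all probes, 15.8% had such a p, in either direction. None passed after adjustment. Sp5, a transcription factor gene induced by canonical Wnt signalling, had levels of -0.38 and 0.28 in the Mutant097 samples and of -2.74 and -1.13 in those of Mutant113, a difference of -1.88 (SE 0.58, limma adjusted p = 0.240). Ccnd1, the cyclin of early cell cycle entry, differed by -0.76 (SE 0.25, limma adjusted p = 0.254). Marker lists moved both ways in this contrast. All 5 markers of cycling cells and all 5 of fibroblasts were lower in Mutant113, with none passing. All 10 hair shaft markers were higher, with 2 passing and a median of 2.48, and so were all 8 of the inner root sheath and all 8 of skeletal muscle, with none passing. Their part was not tested.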
